A study of Sus scrofa with 18 samples.

Results

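FOS, FOSL1, JUN, ATF3, EGR1, MYC, IER5, DUSP6, KLF4 and SGK1 are immediate early genes and signal regulators, and their messenger RNA was followed in transplanted pig kidneys. They were taken by name: every probe set whose only gene symbol in the platform annotation is 1 of these 10 was used, which gave 17 of the 23999 probe sets tested. The series concerns injury when blood flow returns to a transplanted kidney (ischemia and reperfusion) and treatment with carbon monoxide (CO), a gas that cells also make in small amounts from heme. Each of 18 kidney RNA samples was hybridised to 1 Affymetrix pig array. The groups were transplanted kidneys with CO at 24 h, untreated transplanted kidneys at 24 h, transplanted kidneys with CO at 4 h and untreated transplanted kidneys at 4 h (4 arrays each), and naive kidneys that were not transplanted (2 arrays). Donors 5 to 8 gave the 24 h kidneys and donors 1 to 4 the 4 h kidneys, each giving 1 CO kidney and 1 untreated kidney. The treatment field reads air on the CO arrays too, and the titles and sources, which name CO, were followed. Strain, age, length of storage, the dose of CO and whether donor, graft or recipient received it are not given in the sources used here. Nothing says that the 2 naive arrays come from separate animals, so their spread may be technical. Numbers in their array file names recur in those of donor 4, so an animal shared with each other or with donor 4 is possible but not known.

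Immediate early genes are switched on within minutes of a signal by transcription factors that are already present in the cell, such as those that MAP kinases phosphorylate. Several encode transcription factors themselves. FOS and FOSL1 proteins pair with JUN to form AP-1, ATF3 is a stress-induced member of the ATF/CREB family that can also pair with JUN, EGR1 and KLF4 are zinc finger factors, and MYC drives ribosome production and growth. IER5 is a small nuclear protein that acts on heat shock factor signalling, DUSP6 is a phosphatase that removes the activating phosphates from ERK, and SGK1 is a kinase induced by steroids and cell stress that promotes sodium uptake in the distal nephron. Brief renal ischemia is a textbook inducer of FOS, JUN and EGR1 messages in the kidney.

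Values are log2 levels after RMA, so a difference of 1 is a doubling of the signal, and levels of different probe sets are not comparable. Background was taken on each array as the brightest of 17 tag control probe sets, between 1.39 and 1.83. The probe set with the highest mean stands for each gene, and all of these 10 were above background on all 18 arrays. The naive arrays carried kidney transcripts at high level, with the endocytic receptor LRP2 between 10.09 and 10.20 and MIOX, an inositol-degrading enzyme of the proximal tubule, between 11.41 and 11.59. Among the untreated 4 h arrays, that of donor 1 stood apart: its mean correlation was 0.982 with the naive arrays and 0.956 with its own group, while the other 3 had 0.939 to 0.957 with the naive arrays. The comparisons of untreated 4 h kidneys with naive kidneys are also given without it. This array was singled out for its likeness to the naive arrays, so leaving it out tends to widen the differences from naive. Values without it, here and below, describe its influence and are not separate support. The 3' minus 5' signal of actin, a sign of RNA degradation, was highest on the CO 24 h arrays of donors 5 and 8, with 2.51 and 2.79. It was between 1.20 and 2.27 on all other arrays, among them 1.22 and 2.18 on the CO 24 h arrays of donors 6 and 7. Its part in the results was not tested. Array file names place the arrays in 4 batches, and batch 1 holds naive array 1 and both kidneys of donors 1, 3 and 4. Batch 2 holds naive array 2, the pair from donor 2, and untreated donor 5, and batches 3 and 4 hold only 24 h arrays.

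**Figure D1:**
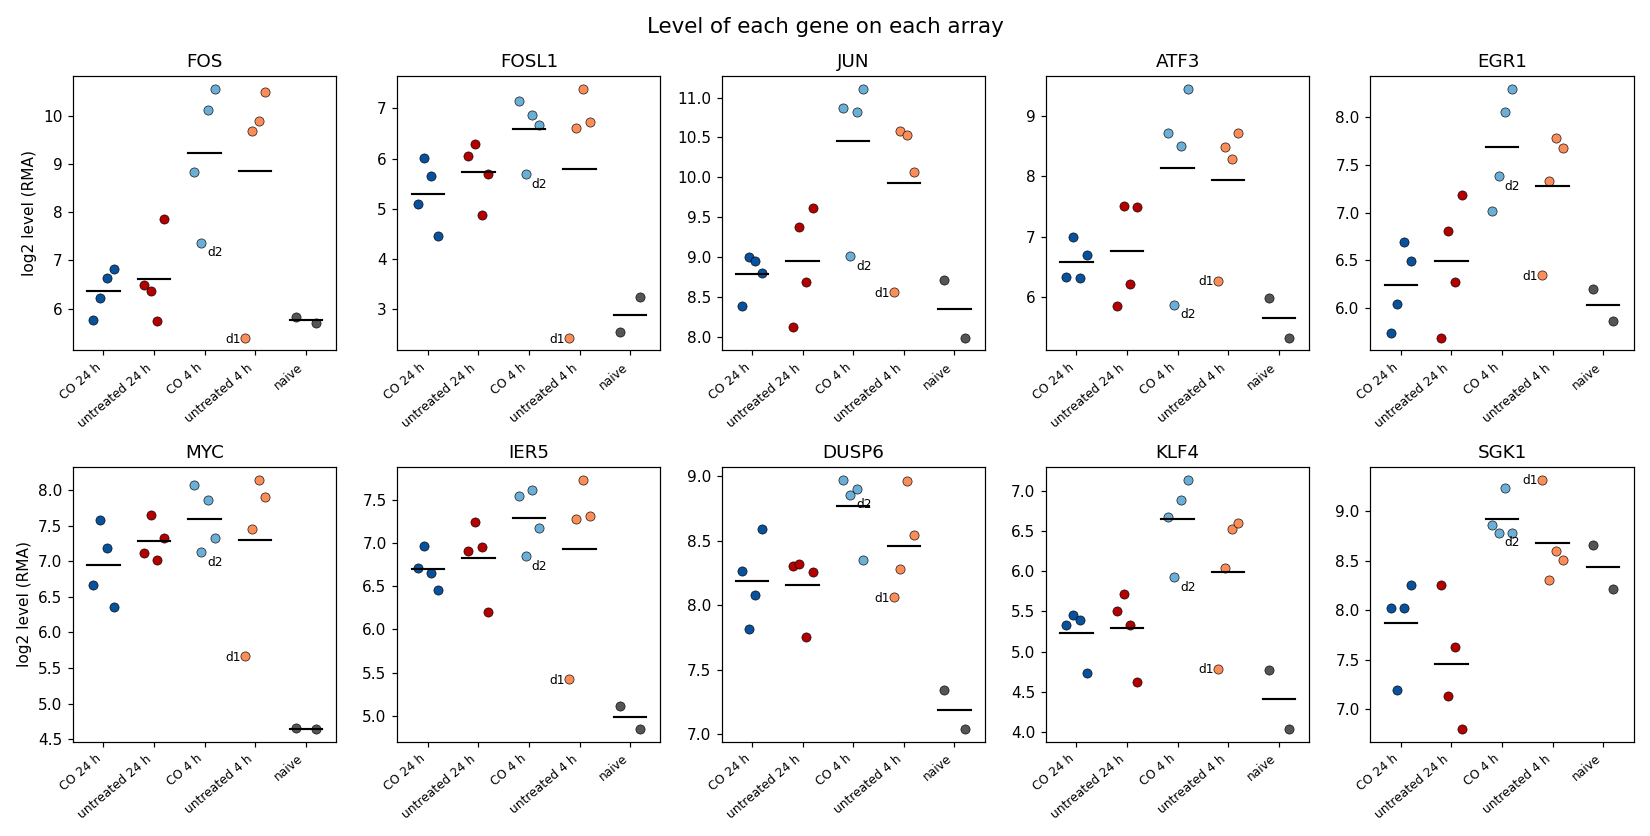
Log2 level of each gene on each array (vertical axis, RMA scale, different range in each panel) by group (horizontal axis). Points are arrays, horizontal lines are group means, d1 marks the untreated 4 h kidney of donor 1 and d2 the CO 4 h kidney of donor 2. In the FOS panel d1 sits at 5.39 among the naive arrays, and the other untreated 4 h arrays lie between 9.68 and 10.48.

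At 4 h the AP-1 genes stood far above naive kidneys on most arrays of both transplanted groups. FOS had 8.82, 7.37, 10.12 and 10.56 in the CO 4 h kidneys of donors 1 to 4 and 5.39, 9.68, 9.88 and 10.48 in their untreated partners, against 5.83 and 5.70 in naive kidneys. Every CO array was above both naive arrays, and so was every untreated array except that of donor 1. FOS rose in the CO 4 h kidneys by 3.45 ± 1.09 over naive (limma, adjusted p = 0.0452), a signal 10.95-fold that of naive kidneys. In untreated 4 h kidneys the difference was 3.09 ± 1.09 (limma, adjusted p = 0.121), and without donor 1 it was 4.25 (limma, adjusted p = 0.00128). In RNA of a whole kidney, a change in the number of cells that carry a message and a change in the message per cell cannot be told apart.

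FOSL1, the FRA-1 subunit that in cultured cells follows FOS with a delay, had 7.14, 5.68, 6.87 and 6.67 in CO 4 h kidneys and 2.42, 6.62, 7.39 and 6.72 in untreated 4 h kidneys, against 2.53 and 3.23 in naive kidneys. The untreated kidney of donor 1 was again the only transplanted 4 h kidney at a naive level. FOSL1 rose by 3.71 ± 0.95 with CO (limma, adjusted p = 0.0196), the largest change of the 10 genes in that comparison. Its difference in untreated kidneys was 2.91 ± 0.95 (limma, adjusted p = 0.101), or 4.03 without donor 1 (limma, adjusted p = 1e-04).

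JUN, the common partner of the FOS proteins, had 10.86, 9.02, 10.82 and 11.11 in CO 4 h kidneys and 8.56, 10.58, 10.53 and 10.06 in untreated 4 h kidneys, against 8.71 and 7.99 in naive kidneys. It rose by 2.10 ± 0.59 with CO (limma, adjusted p = 0.028), and its difference without CO was 1.58 ± 0.59 (limma, adjusted p = 0.138), or 2.04 without donor 1 (limma, adjusted p = 0.0159). ATF3 had 8.72, 5.88, 8.49 and 9.44 with CO and 6.27, 8.48, 8.29 and 8.70 untreated, against 6.00 and 5.33 in naive kidneys. The low arrays of ATF3 and JUN were the same kidneys, CO donor 2 and untreated donor 1. ATF3 missed the threshold narrowly in CO kidneys (2.47 ± 0.80, limma, adjusted p = 0.0502), and it passed without CO donor 2 (3.22, limma, adjusted p = 0.00738) or without untreated donor 1 (limma, adjusted p = 0.0241). In untreated kidneys ATF3 differed by 2.27 ± 0.80 (limma, adjusted p = 0.121), or by 2.82 without donor 1 (limma, adjusted p = 0.0188).

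Both zinc finger factors passed in CO 4 h kidneys. EGR1, a growth and stress factor that serum response factor controls, had 7.02, 7.38, 8.05 and 8.29 in CO 4 h kidneys and 6.35, 7.33, 7.78 and 7.67 in untreated 4 h kidneys, against 6.20 and 5.87 in naive kidneys. All 8 transplanted arrays were above both naive arrays, untreated donor 1 by the least. EGR1 rose by 1.65 ± 0.45 with CO (limma, adjusted p = 0.0257), and its difference without CO was 1.25 ± 0.45 (limma, adjusted p = 0.129), or 1.56 without donor 1 (limma, adjusted p = 0.0208). KLF4, known in epithelia for growth arrest and differentiation, had 6.67, 5.93, 6.88 and 7.13 with CO and 4.79, 6.04, 6.53 and 6.59 untreated, against 4.78 and 4.04 in naive kidneys. It rose by 2.24 ± 0.45 with CO (limma, adjusted p = 0.0078), and its difference without CO was 1.58 ± 0.45 (limma, adjusted p = 0.0704), or 1.98 without donor 1 (limma, adjusted p = 0.00224).

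MYC, IER5 and DUSP6 rose in both 4 h groups. MYC had 8.07, 7.13, 7.86 and 7.32 in CO 4 h kidneys and 5.67, 7.45, 8.14 and 7.90 in untreated 4 h kidneys, against 4.65 and 4.64 in naive kidneys. Even the untreated kidney of donor 1 was above naive here, though lower than its group. MYC rose by 2.95 ± 0.51 with CO (limma, adjusted p = 0.00517) and by 2.64 ± 0.51 without it (limma, adjusted p = 0.0284), a 7.72-fold and a 6.24-fold higher signal. Without donor 1 the MYC change in untreated kidneys was 3.18 (limma, adjusted p = 3.91e-05).

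IER5 had 7.54, 6.85, 7.61 and 7.17 in CO 4 h kidneys and 5.42, 7.28, 7.73 and 7.31 in untreated 4 h kidneys, against 5.12 and 4.85 in naive kidneys. It rose by 2.31 ± 0.46 with CO (limma, adjusted p = 0.00741) and by 1.95 ± 0.46 without it (limma, adjusted p = 0.0468). DUSP6 had 8.97, 8.86, 8.90 and 8.35 with CO and 8.06, 8.28, 8.97 and 8.54 untreated, against 7.34 and 7.04 in naive kidneys. All 8 transplanted arrays were above both naive arrays for each of these 3 genes. Here and for the other genes, the share of all probe sets that lie above both naive arrays in this way was not counted. DUSP6 rose by 1.58 ± 0.26 with CO (limma, adjusted p = 0.00448) and by 1.27 ± 0.26 without it (limma, adjusted p = 0.0352). Without donor 1 the untreated changes were 2.46 for IER5 (limma, adjusted p = 6.37e-05) and 1.41 for DUSP6 (limma, adjusted p = 0.00241).

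SGK1 was the exception at 4 h. It had 8.87, 8.78, 9.24 and 8.78 in CO 4 h kidneys and 9.32, 8.30, 8.59 and 8.51 in untreated 4 h kidneys, against 8.66 and 8.21 in naive kidneys. The untreated kidney of donor 1, the lowest of its group for the other 9 genes, was the highest of it for SGK1. Differences from naive were 0.48 ± 0.36 with CO (limma, adjusted p = 0.436) and 0.24 ± 0.36 without it (limma, adjusted p = 0.779), with 95% intervals of -0.29 to 1.25 and -0.53 to 1.01. Without donor 1 the untreated difference was 0.03 (limma, adjusted p = 0.978).

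In limma with a Benjamini-Hochberg adjusted p under 0.05, 12 of 17 member probe sets, from 8 of the 10 genes, were higher in CO 4 h kidneys than in naive kidneys, against 6.84% of all probe sets. In untreated 4 h kidneys 4 of 17 member probe sets were higher, from MYC, IER5, DUSP6 and EGR1, against 0.942% of all. At an unadjusted p under 0.05, 13 of the 17 differed in untreated kidneys, against 20.7% of all probe sets. Without untreated donor 1, 14 of the 17 were higher there, from every gene but SGK1, against 7.05% of all. That array was picked for its likeness to naive, so this count is not separate support. The median change of the 10 genes was 2.28 with CO and 1.77 without it (2.25 without untreated donor 1), and that of all probe sets was -0.01 and -0.03. Both comparisons share the 2 naive arrays. The 10 genes were chosen with earlier results of these data known. Here and below, their counts are therefore not an independent test against the shares of all probe sets.

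These counts rested on few arrays. In CO 4 h kidneys 7 member probe sets passed without CO donor 1 or CO donor 3, and leaving out the first naive array left 1 and the second left 0. In untreated 4 h kidneys 0 of the member probe sets passed without either naive array or without untreated donor 2, 3 or 4. There, 2 passed without CO 4 h donor 3, without untreated 24 h donor 5, 6 or 7, or without CO 24 h donor 6, 7 or 8. Of the 18 fits that left out 1 array, 12 ended the FOS call in CO kidneys (limma, adjusted p up to 0.224): it was kept without any of the 4 untreated 4 h arrays, CO 4 h donor 2 or untreated 24 h donor 8. The IER5 call in untreated kidneys ended in 15 (limma, adjusted p up to 0.30) and was kept without untreated 4 h donor 1, CO 4 h donor 2 or untreated 24 h donor 8. Without CO donor 1, FOSL1 (limma, adjusted p = 0.0537) and JUN (limma, adjusted p = 0.0737) missed the threshold in CO kidneys, and without CO donor 3 JUN (limma, adjusted p = 0.0636) and EGR1 (limma, adjusted p = 0.0605) did. With array batch as a fixed term, 10 member probe sets passed with CO and 0 without it, and within batch 1 alone 0 passed in either group. The group means of all 10 genes were above the 1 naive array of each batch: by 0.30 to 4.37 with CO and 0.15 to 2.98 untreated in batch 1, and by 0.55 to 2.49 and 0.09 to 3.97 in batch 2, where each group had 1 array. In batch 1 the untreated kidney of donor 1 alone was below that naive array for FOS (5.39 against 5.83), FOSL1 (2.42 against 2.53) and JUN (8.56 against 8.71).

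**Figure D2:**
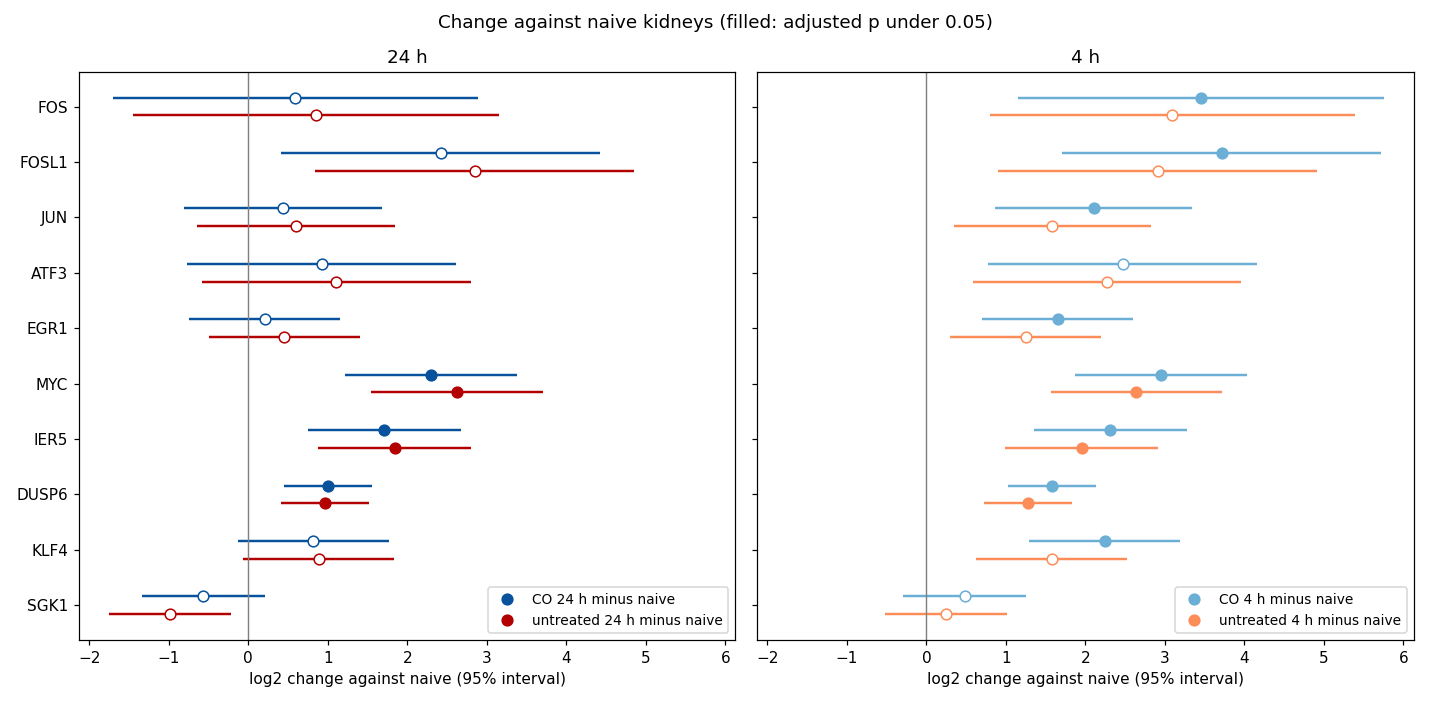
Log2 change of each gene against naive kidneys (horizontal axis, with 95% interval) in CO and untreated kidneys at 24 h (left) and 4 h (right). Filled points passed an adjusted p under 0.05. At 4 h 8 genes are filled with CO and 3 without it, and at 24 h only MYC, IER5 and DUSP6 are filled in either group.

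At 24 h MYC, IER5 and DUSP6 passed against naive. FOSL1 was above naive on every array but did not pass, and FOS, JUN, ATF3, EGR1 and KLF4 did not pass. This split is by the threshold, and the genes were not tested against each other. Without CO, ATF3 differed by 1.11 ± 0.80 and did not pass, and DUSP6 differed by 0.97 ± 0.26 and did. MYC had 6.66, 7.58, 7.19 and 6.36 in the CO 24 h kidneys of donors 5 to 8 and 7.12, 7.65, 7.01 and 7.32 in their untreated partners, all above the naive 4.65 and 4.64. It rose by 2.30 ± 0.51 with CO (limma, adjusted p = 0.00891) and by 2.63 ± 0.51 without it (limma, adjusted p = 0.00315). IER5 had 6.71, 6.96, 6.65 and 6.46 with CO and 6.91, 7.25, 6.96 and 6.20 untreated, all above the naive 5.12 and 4.85. It rose by 1.71 ± 0.46 with CO (limma, adjusted p = 0.0229) and by 1.84 ± 0.46 without it (limma, adjusted p = 0.0126). DUSP6 had 8.26, 7.82, 8.08 and 8.59 with CO and 8.30, 8.32, 7.75 and 8.25 untreated, and the naive arrays had 7.34 and 7.04. It rose by 1.00 ± 0.26 with CO (limma, adjusted p = 0.0216) and by 0.97 ± 0.26 without it (limma, adjusted p = 0.0204).

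FOSL1 had 5.09, 6.01, 5.65 and 4.45 in CO 24 h kidneys and 6.06, 6.29, 4.87 and 5.69 in untreated 24 h kidneys, against 2.53 and 3.23 in naive kidneys. The groups did not overlap, and the differences of 2.42 ± 0.95 with CO (limma, adjusted p = 0.112) and 2.85 ± 0.95 without it (limma, adjusted p = 0.0543) did not pass. Without untreated 4 h donor 1, an array of neither 24 h group that enters the shared spread, both passed (limma, adjusted p = 0.00314 with CO and 0.00076 without it), and without untreated 4 h donor 3 the second did (limma, adjusted p = 0.0439).

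FOS had 5.76, 6.22, 6.63 and 6.83 in CO 24 h kidneys and 6.49, 6.37, 5.75 and 7.86 in untreated 24 h kidneys, against 5.83 and 5.70 in naive kidneys, and the groups overlapped. Its differences from naive were 0.59 ± 1.09 with CO and 0.85 ± 1.09 without it. JUN differed from naive by 0.44 ± 0.59 with CO and 0.60 ± 0.59 without it, EGR1 by 0.21 ± 0.45 and 0.46 ± 0.45, ATF3 by 0.93 ± 0.80 and 1.11 ± 0.80, and KLF4 by 0.82 ± 0.45 and 0.89 ± 0.45. None of these 10 differences passed (limma, adjusted p of 0.214 or more), and their wide 95% intervals, from -1.70 to 2.89 for FOS with CO, do not show that the genes were back at naive levels. ATF3 was above both naive arrays on all 4 CO arrays and on 3 of 4 untreated arrays, and KLF4 on 3 of 4 in each group. The 24 h kidneys of donor 8 were not alike: FOS was 6.83 in the CO kidney and 7.86 in the untreated kidney, the highest FOS value of all 24 h arrays.

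By the probe sets that stand for the genes, SGK1 was the only gene whose 24 h means lay below naive. Another EGR1 probe set also lay lower, by -0.86 with CO and -0.55 without it, and did not pass. The dimmest EGR1 probe set lay above naive, by 0.997 with CO and 1.35 without it, and did not pass either. SGK1 had 8.02, 7.19, 8.02 and 8.26 in CO 24 h kidneys and 8.26, 7.13, 7.63 and 6.80 in untreated 24 h kidneys, against 8.66 and 8.21 in naive kidneys. In each group only 1 array lay within the naive range. Differences from naive were -0.57 ± 0.36 with CO (limma, adjusted p = 0.365) and -0.98 ± 0.36 without it (limma, adjusted p = 0.083), and without untreated donor 5 the untreated difference passed (-1.25, limma, adjusted p = 0.0257).

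At 24 h 3 of 17 member probe sets were higher than naive with CO, against 5.75% of all probe sets, and 3 of 17 without CO, against 6.79%. In each group they were the probe sets of MYC, IER5 and DUSP6. Medians over the 10 genes were 0.87 with CO and 0.93 without it, and medians over all probe sets were -0.02 and 0.01. Without naive array 1 or 2, 0 member probe sets passed with CO and 1 without it, which was MYC. Without CO donor 6 the IER5 call with CO ended (limma, adjusted p = 0.0508), without untreated donor 6 the DUSP6 call without CO ended (limma, adjusted p = 0.0542), and without the untreated 4 h kidney of donor 1, 5 member probe sets passed without CO. Naive and 24 h arrays share batch 2 alone, through the untreated kidney of donor 5. That kidney had 2.48 for MYC, 2.06 for IER5, 1.26 for DUSP6 and 2.83 for FOSL1 above naive array 2, and 0.04 for SGK1. With array batch as a fixed term, 0 member probe sets passed at 24 h in either group, and the changes of MYC were 1.96 with CO and 2.55 without it.

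What changed between the times was asked by setting 24 h kidneys against 4 h kidneys of the same treatment, which came from other donors. All 10 genes had a lower mean at 24 h in both treatments. Their median change was -1.36 with CO and -0.74 without it, and that of all probe sets was -0.04 and 0.02. With CO, FOS fell by 2.86 ± 0.89 (limma, adjusted p = 0.0353), JUN fell by 1.67 ± 0.48 (limma, adjusted p = 0.0247) and EGR1 fell by 1.44 ± 0.37 (limma, adjusted p = 0.013). KLF4 fell by 1.42 ± 0.37 (limma, adjusted p = 0.014) and SGK1 fell by 1.05 ± 0.30 (limma, adjusted p = 0.0234). For each of these 5 genes all 4 CO arrays at 24 h lay below all 4 at 4 h. These are the genes already called, and the share of all probe sets that separate in this way was not counted, so this is not separate support. FOS averaged 6.36 ± 0.48 at 24 h and 9.22 ± 1.44 at 4 h (SD, n = 4 each), and SGK1 averaged 7.87 ± 0.47 at 24 h and 8.92 ± 0.22 at 4 h.

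**Figure D3:**
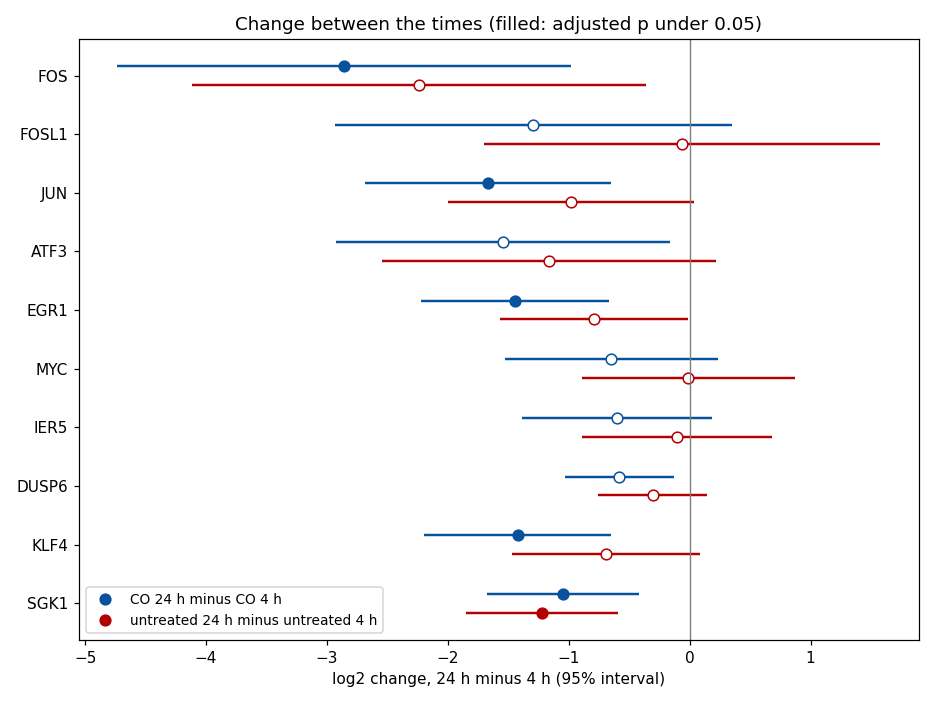
Log2 change of each gene from 4 h to 24 h (24 h minus 4 h, horizontal axis, with 95% interval) in CO and in untreated kidneys. Filled points passed an adjusted p under 0.05: FOS, JUN, EGR1, KLF4 and SGK1 with CO, and SGK1 without it, all on the negative side.

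Without CO, SGK1 was the gene that passed: it averaged 7.46 ± 0.63 at 24 h and 8.68 ± 0.44 at 4 h (SD, n = 4 each) and fell by 1.23 ± 0.30 (limma, adjusted p = 0.0154). FOS differed by -2.24 ± 0.89 between the times (limma, adjusted p = 0.13), with averages of 6.62 ± 0.89 at 24 h and 8.86 ± 2.34 at 4 h (SD, n = 4 each). Without untreated 4 h donor 1, FOS (-3.40, limma, adjusted p = 0.00226), JUN (-1.44, limma, adjusted p = 0.0408) and KLF4 (-1.09, limma, adjusted p = 0.0289) passed as well, and SGK1 still did (-1.01, limma, adjusted p = 0.0359). MYC, IER5 and FOSL1 differed by -0.01 ± 0.42, -0.11 ± 0.37 and -0.06 ± 0.78 in untreated kidneys and by -0.65 ± 0.42, -0.60 ± 0.37 and -1.29 ± 0.78 in CO kidneys, none of which passed (limma, adjusted p between 0.28 and 0.99). DUSP6 differed by -0.58 ± 0.21 in CO kidneys (limma, adjusted p = 0.0702) and by -0.31 ± 0.21 in untreated kidneys (limma, adjusted p = 0.44). ATF3 differed by -1.55 ± 0.65 in CO kidneys (limma, adjusted p = 0.115), or by -2.30 without the CO 4 h kidney of donor 2 (limma, adjusted p = 0.00637), and by -1.16 ± 0.65 in untreated kidneys (limma, adjusted p = 0.312). Of 29 other immediate early genes measured, 6 were lower at 24 h with CO, against 7.44% of all probe sets, and 1 without it, against 4.57%. GADD45B, a stress sensor upstream of p38 and JNK, was among them in both, and fell by 2.15 ± 0.37 with CO (limma, adjusted p = 0.00123) and by 1.39 ± 0.37 without it (limma, adjusted p = 0.0237).

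Of the 17 member probe sets, 5 were lower at 24 h than at 4 h with CO, against 7.44% of all probe sets, and 1 was lower without CO, against 4.57%. Without the untreated 4 h kidney of donor 1 the counts were 11 with CO, against 8.88%, and 6 without CO, against 5.72%. Without CO 4 h donor 2, 9 passed with CO. Counts with CO dropped to 3 without CO 4 h donor 1 or CO 24 h donor 5 and to 2 without CO 4 h donor 3, and the SGK1 call without CO ended without untreated 24 h donor 6 (limma, adjusted p = 0.0567). With CO the FOS call ended without CO 4 h donor 1, 3 or 4 or CO 24 h donor 5, 6 or 7 (limma, adjusted p up to 0.105), and the JUN call without CO 4 h donor 1, 3 or 4 or CO 24 h donor 5 (limma, adjusted p up to 0.076). The SGK1 call with CO ended without CO 4 h donor 1 or 3 or CO 24 h donor 6 (limma, adjusted p up to 0.0765), and DUSP6 passed without CO 4 h donor 4 or CO 24 h donor 8 (limma, adjusted p = 0.0394 and 0.0369). The EGR1 and KLF4 calls held whichever array was left out. The CO groups of the 2 times share no array batch, and the untreated groups share batch 2 alone, with 1 array each. In that batch the untreated kidney of donor 5 (24 h) minus that of donor 2 (4 h) was -3.19 for FOS, -2.45 for JUN and -2.62 for ATF3 but -0.05 for SGK1. With array batch as a fixed term 0 member probe sets passed in either treatment, the SGK1 change with CO turned to 0.52 (limma, adjusted p = 0.735), and that without CO shrank to -0.15. No batch holds CO arrays of both times, so that fit reached the CO change through the other groups.

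Whether CO moved these genes was asked within each time, where CO and untreated kidneys came from the same donors. The main fit has no donor term, so its standard errors and intervals are not within-donor ones. In limma none of the 17 member probe sets passed at 4 h, where 0% of all probe sets did, and none had an unadjusted p under 0.05, against 3.28% of all. At 24 h none passed (0% of all), and none had an unadjusted p under 0.05, against 1.17%. The difference of the CO effect between 24 h and 4 h gave 0 of 17 as well (0% of all, and 2.55% at an unadjusted p under 0.05 with 0 of the 17). With donor as a block in the fit, random or fixed, these counts of member probe sets stayed at 0.

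**Figure D4:**
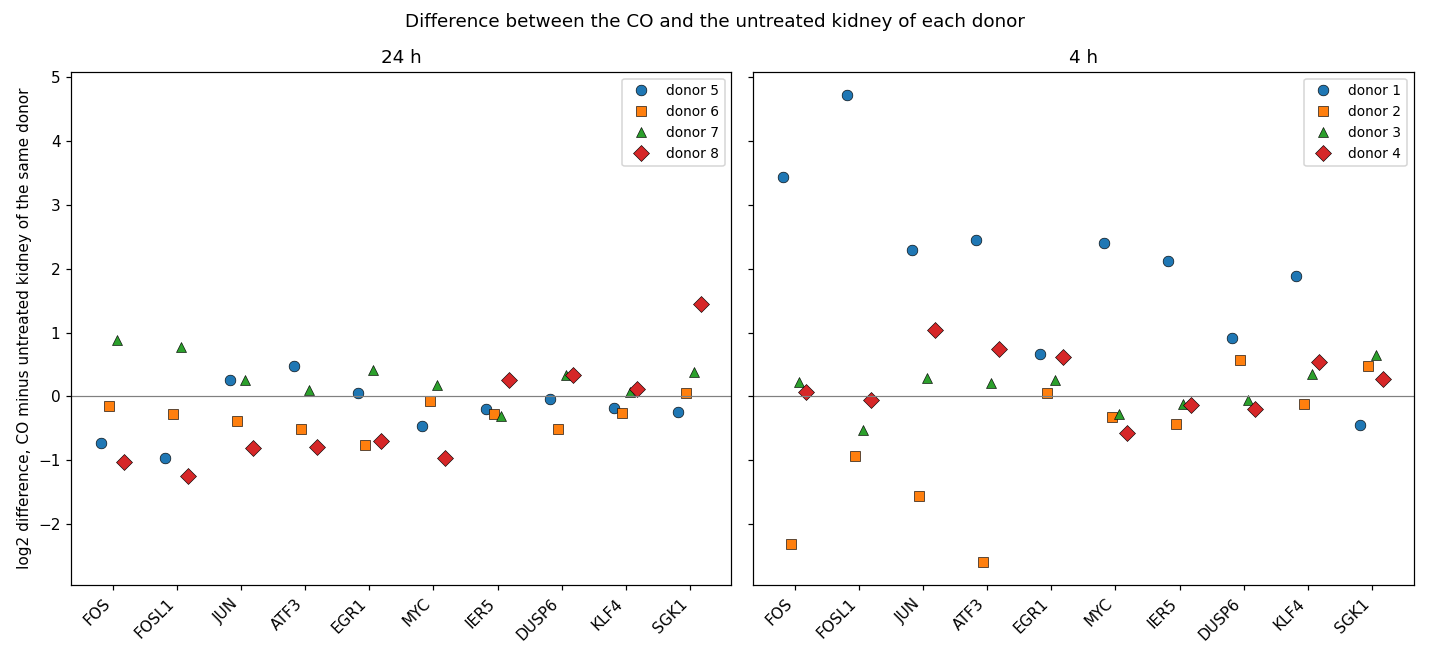
Log2 difference between the CO kidney and the untreated kidney of the same donor (vertical axis) for each gene (horizontal axis) at 24 h (left) and 4 h (right); marker shapes are donors. At 4 h donor 1 lies far above 0 for most genes, up to 4.72 for FOSL1, and donor 2 lies below 0 for ATF3, FOS and JUN.

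Donor pairs at 4 h disagreed in sign. In donor 1 the CO kidney exceeded the untreated kidney by 3.43 for FOS, 4.72 for FOSL1, 2.30 for JUN and 2.45 for ATF3. In donor 2 the CO kidney was the lower, with differences of -2.31 for FOS, -0.93 for FOSL1, -1.56 for JUN and -2.59 for ATF3. In donors 3 and 4 FOS differed by 0.23 and 0.08, FOSL1 by -0.52 and -0.05, JUN by 0.29 and 1.05, and ATF3 by 0.20 and 0.74. By its brightest probe set EGR1 was higher with CO in 4 of 4 donors, by 0.05 to 0.67, but its other probe sets were higher in 3 of 4 (-0.29 to 1.91) and in 2 of 4 (-0.23 to 0.24). FOS, JUN, ATF3, KLF4 and SGK1 were higher with CO in 3 of 4 donors, DUSP6 in 2 of 4, and FOSL1, MYC and IER5 in 1 of 4.

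On average the CO kidneys differed at 4 h by 0.36 ± 0.89 for FOS, with a 95% interval of -1.52 to 2.24, and by 0.67 ± 0.37 for KLF4, with an interval of -0.11 to 1.44. DUSP6 had the narrowest interval of the 10 genes, -0.14 to 0.76, around 0.31 ± 0.21. The interval of FOS reaches past a doubling and past a halving, and that of DUSP6 reaches neither. Without the untreated kidney of donor 1 and the CO kidney of donor 2, the 4 h difference of FOS was -0.18 and that of FOSL1 was -0.016. In batch 1, which holds donors 1, 3 and 4, all 10 genes were higher with CO, by 0.16 to 1.38, and in batch 2, which is donor 2, 3 of 10 were, between -2.59 and 0.58. Batch 1 includes the untreated kidney of donor 1, and without that array 5 of the 10 genes were higher with CO over all 4 h arrays, with a median difference over the 10 of -0.04, against 0.36 with it. The median difference of 17 leukocyte markers was -0.86 at 4 h, none of them passed, and their part in these values was not tested.

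At 24 h the pairs disagreed in sign for each gene as well. FOS differed by -0.73, -0.15, 0.88 and -1.03 in donors 5 to 8, and the mean difference was -0.26 ± 0.89 with an interval of -2.13 to 1.62. MYC differed by -0.46, -0.07, 0.18 and -0.97, and its mean difference was -0.33 ± 0.42. SGK1 was higher with CO in 3 of 4 donors, by up to 1.46 in donor 8, and its mean difference was 0.42 ± 0.30 with an interval of -0.21 to 1.05. Batch 3, with 3 arrays of each group, gave 0.91 for SGK1 and -0.25 for FOS.

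The dimmer probe sets of 4 genes gave a second reading. FOSL1 has 2 more, of which 1 rose with CO at 4 h (1.67 ± 0.51, limma, adjusted p = 0.04) and the other differed from naive by 1.23 ± 0.52 (limma, adjusted p = 0.128). IER5 has 2 more: the brighter rose with CO at 4 h (1.99 ± 0.56, limma, adjusted p = 0.0278), and the dimmer was above background on 4 of 18 arrays. The other DUSP6 probe set also rose with CO at 4 h (1.48 ± 0.32, limma, adjusted p = 0.0106). With all arrays in the fit, neither of these extra probe sets of IER5 and DUSP6 passed against naive in the other 3 groups. In untreated 4 h kidneys they differed by 1.62 ± 0.56 for IER5 (limma, adjusted p = 0.114) and 1.09 ± 0.32 for DUSP6 (limma, adjusted p = 0.0795). At 24 h IER5 differed by 0.70 with CO (limma, adjusted p = 0.481) and 1.04 without it (limma, adjusted p = 0.242), and DUSP6 by 0.84 (limma, adjusted p = 0.105) and 0.70 (limma, adjusted p = 0.167). The dimmest FOSL1 probe set overlapped naive at 24 h, with 0.045 with CO (limma, adjusted p = 0.97) and 0.50 without it (limma, adjusted p = 0.596). EGR1 has 2 more, and these disagreed. Its dimmest probe set rose in CO 4 h kidneys (2.04 ± 0.47, limma, adjusted p = 0.0131) and in untreated 4 h kidneys (2.02 ± 0.47, limma, adjusted p = 0.0472). At 24 h that probe set differed from naive by 0.997 ± 0.47 with CO (limma, adjusted p = 0.193) and 1.35 ± 0.47 without it (limma, adjusted p = 0.0663). The other EGR1 probe set differed from naive at 4 h by 0.87 ± 0.76 with CO and 0.27 ± 0.76 without it. It lay lower at 24 h, by -0.86 ± 0.76 with CO and -0.55 ± 0.76 without it, and none of its differences passed.

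Other genes of the same pathways were read from lists, by the brightest probe set of each gene. Their counts stand against shares of all probe sets that, at 4 h, were 6.84% higher and 6.72% lower than naive with CO and 0.942% and 0.563% without it. At 24 h those shares were 5.75% higher and 5.93% lower with CO and 6.79% and 7.77% without it. A count of 1 or 2 genes in lists this short is given as a value and is not read as a result about the list. The lists were also chosen with earlier results of these data known, so larger counts are not an independent test either. Of 9 partners of AP-1 and ATF factors measured, 5 rose in CO 4 h kidneys against naive and 2 in untreated 4 h kidneys, with median changes over the 9 of 1.87 and 1.36. DDIT3 (CHOP), a stress-induced factor of the CEBP family, rose by 3.10 ± 0.83 with CO (limma, adjusted p = 0.0244). CEBPB, an inflammation and acute phase factor, rose by 2.76 ± 0.48 with CO (limma, adjusted p = 0.00517) and by 2.71 ± 0.48 without it (limma, adjusted p = 0.021). ATF4, which drives the response to amino acid shortage, rose by 2.50 ± 0.42 with CO (limma, adjusted p = 0.00473) and by 1.99 ± 0.42 without it (limma, adjusted p = 0.0359). At 24 h CEBPB and ATF4 were the 2 of 9 that rose, in both groups, CEBPB by 1.91 ± 0.48 with CO (limma, adjusted p = 0.0169) and by 2.47 ± 0.48 without it (limma, adjusted p = 0.00311).

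Of 29 other immediate early genes measured, 9 rose and 1 fell in CO 4 h kidneys, where 6.72% of all probe sets were lower, and 2 rose in untreated 4 h kidneys. Medians over the 29 were 0.58 with CO and 0.59 without it. ADAMTS1, a secreted protease, rose most with CO (3.77 ± 0.74, limma, adjusted p = 0.00741). GADD45B rose by 2.45 ± 0.45 with CO (limma, adjusted p = 0.00605) and by 1.93 ± 0.45 without it (limma, adjusted p = 0.0467). CYR61, a matrix-bound signal protein, rose by 2.37 ± 0.53 with CO (limma, adjusted p = 0.0116). Without CO it differed by 2.00 ± 0.53 and did not pass (limma, adjusted p = 0.0607). RCAN1, an inhibitor of calcineurin, rose by 2.36 ± 0.45 with CO (limma, adjusted p = 0.00672) and by 1.97 ± 0.45 without it (limma, adjusted p = 0.044). At 24 h ADAMTS1 and RCAN1 were above naive in both groups, ADAMTS1 by 2.98 ± 0.74 with CO (limma, adjusted p = 0.0165) and by 3.02 ± 0.74 without it (limma, adjusted p = 0.0124). NR4A2, an orphan nuclear receptor often induced with FOS, went the other way at both times. At 4 h it fell by -1.14 ± 0.35 with CO (limma, adjusted p = 0.0414). Without CO it differed by -1.42 ± 0.35 and did not pass (limma, adjusted p = 0.0523). At 24 h it changed by -2.26 ± 0.35 with CO (limma, adjusted p = 0.00137) and by -2.18 ± 0.35 without it (limma, adjusted p = 0.00106). There 5.93% and 7.77% of all probe sets were lower.

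Of 5 other KLF genes measured, 3 fell at 24 h in each group and none rose, with medians of -1.23 with CO and -1.22 without it. KLF9 changed by -2.75 ± 0.45 with CO (limma, adjusted p = 0.00174) and by -2.61 ± 0.45 without it (limma, adjusted p = 0.00142), and KLF15 by -1.99 ± 0.55 with CO (limma, adjusted p = 0.0271) and by -2.25 ± 0.55 without it (limma, adjusted p = 0.012). KLF9 and KLF15 are both known as glucocorticoid-responsive genes, and KLF11 (-1.23 ± 0.36 with CO, limma, adjusted p = 0.0336) was the other that fell.

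Among 15 growth factor ligands and receptors 1 rose and 1 fell in CO 4 h kidneys, which is near the 6.84% and 6.72% of all probe sets, none passed in untreated ones, and 2 fell at 24 h with CO and 3 without it. HBEGF, a membrane-bound ligand of the EGF receptor, rose in CO 4 h kidneys (1.80 ± 0.46, limma, adjusted p = 0.0194), and EGF, made by the distal tubule, fell at 24 h with CO (-3.72 ± 0.60, limma, adjusted p = 0.00174) and without it (-4.21 ± 0.60, limma, adjusted p = 0.000481). Of 12 genes of the MAP kinase cascade and its serum response factors, 2 rose in each 4 h group. RPS6KA3 (RSK2), a kinase that ERK activates, rose by 1.32 ± 0.23 with CO (limma, adjusted p = 0.00517) and by 1.01 ± 0.23 without it (limma, adjusted p = 0.044), and MAPKAPK3, a target of p38, rose by 0.70 ± 0.17 with CO (limma, adjusted p = 0.0158) and by 0.73 ± 0.17 without it (limma, adjusted p = 0.0455). The p38 activator MAP2K6 was the 1 of the 12 that fell (-0.73 ± 0.22 with CO, limma, adjusted p = 0.0358). Of 6 other feedback regulators of MAP kinases, DUSP1, a nuclear phosphatase of p38 and JNK, was the one that passed at 4 h (1.14 ± 0.35 with CO, limma, adjusted p = 0.0418). At 24 h none of the 6 passed against naive.

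Of 19 genes of the MYC network and its known targets, 5 rose in CO 4 h kidneys and 1 in untreated 4 h kidneys, where 0.563% of all probe sets were lower and none of the 19 was. At 24 h 11 rose in each group and none fell, with medians over the 19 of 0.97 with CO and 1.03 without it. The 3 with the largest changes were LDHA, the lactate-producing dehydrogenase (2.26 ± 0.44 with CO, limma, adjusted p = 0.00471, and 2.62 ± 0.44 without it, limma, adjusted p = 0.00139), the nucleoside diphosphate kinase NME1 (2.20 ± 0.37, limma, adjusted p = 0.00202, and 1.92 ± 0.37, limma, adjusted p = 0.00284) and the nucleolar methyltransferase FBL (1.63 ± 0.31 in each group, limma, adjusted p = 0.00398 and 0.00281). The ribosome assembly factor RRS1 rose at 4 h in CO kidneys (1.57 ± 0.26, limma, adjusted p = 0.00448) and in untreated kidneys (1.30 ± 0.26, limma, adjusted p = 0.0309).

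Of 16 genes around SGK1, 10 fell and none rose at 24 h in each group, with medians over the 16 of -0.94 with CO and -0.95 without it. SGK2, a related kinase, changed by -1.75 ± 0.43 with CO (limma, adjusted p = 0.0156) and by -2.73 ± 0.43 without it (limma, adjusted p = 0.000944). HSD11B2, which shields the mineralocorticoid receptor from cortisol, changed by -1.51 ± 0.35 with CO (limma, adjusted p = 0.0121) and by -1.63 ± 0.35 without it (limma, adjusted p = 0.00631), and WNK4, a kinase of the distal tubule, by -1.56 ± 0.32 (limma, adjusted p = 0.00602) and by -1.54 ± 0.32 (limma, adjusted p = 0.00491). Kidney markers fell too: 5 of 6 passed at 24 h in each group, and their mean level relative to naive ran from -3.44 to -1.69 on the CO 24 h arrays and from -3.84 to -2.77 on the untreated 24 h arrays. At 4 h it ran from -1.75 to -0.73 with CO and from -1.30 to -0.36 without it, and all 6 stayed above background on every array. The part of these markers in the SGK1 values was not tested.

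Leukocyte markers varied widely between arrays. Their mean over 17 genes, relative to the naive mean, was 0.31 to 2.41 on the CO 24 h arrays, 0.70 to 2.39 on the untreated 24 h arrays, 0.35 to 0.59 on the CO 4 h arrays, 0.76 to 1.95 on the untreated 4 h arrays and -0.34 to 0.34 on the naive arrays. Between 0 and 6 of the 17 were below background on an array, and untreated 4 h donor 1 had the lowest mean of its group. At 24 h 3 of 17 rose with CO and 7 without it, among them the chemokine receptor CCR1 (3.71 ± 0.93 with CO, limma, adjusted p = 0.0169) and the macrophage receptor CD163 (2.95 ± 0.73 with CO, limma, adjusted p = 0.0157). None of the 17 passed at 4 h against naive or between CO and untreated kidneys. The B cell marker CD79B was at or under background on all 24 h arrays. Of 15 endothelial, stromal and red cell markers, 2 rose and 0 fell at 24 h in each group. Medians over the 15 were 0.096 with CO and 0.371 without it. The 2 were ACTA2 (2.44 ± 0.65 with CO, limma, adjusted p = 0.0225) and PECAM1 (1.24 ± 0.34 with CO, limma, adjusted p = 0.0281). The stromal marker DCN lay the other way without passing. It had 7.36 to 8.17 with CO and 6.82 to 7.65 without it at 24 h, against 8.80 to 8.95 in naive kidneys. The part of these cells in the levels of the 10 genes was not tested.

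The genes whose levels ran most like each member over the 18 arrays were read from 6755 other named genes, as a description, since all arrays share the same groups. FOS ran most like the small heat shock protein HSPB8 (Pearson r = 0.964) and the chaperone partner DNAJB1 (0.961). FOSL1 ran most like the thioredoxin reductase TXNRD1 (0.974) and ZFAND2A (0.964), and KLF4 like the cytosolic chaperone HSP90AB1 (0.962) and SMNDC1 (0.944). JUN was closest to C17H8orf4 (0.955) and the stress phosphatase subunit PPP1R15A (0.946), ATF3 to NFIL3 (0.959) and GEM (0.915), and EGR1 to THBS1 (0.896) and C17H8orf4 (0.888). MYC and IER5 had the same closest gene, RRS1 (0.967 and 0.977), followed by DSE for MYC (0.961) and TAF4B for IER5 (0.976). DUSP6 was closest to TP53BP2 (0.899) and SAMD4A (0.897), and SGK1 to PLPP1 (0.919) and ATL2 (0.882). Without the untreated 4 h kidney of donor 1 these correlations lay between 0.862 and 0.978.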

How the data were processed

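A total of 18 pig kidney RNA samples were measured on Affymetrix arrays. The values are log2 levels that the authors made with RMA, which subtracts background, quantile-normalizes the arrays and sums the probes of a set, per the submitters' processing notes. Such summaries compress large changes of dim probe sets. Of 24123 probe sets deposited, 124 controls were left out. Of the 23999 kept, 10069 have 1 gene symbol in the platform annotation, 198 have several and 13732 have none, and only the first kind was named.

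One limma fit (version 3.58.1, R 4.3.3) gave each of the 5 groups a mean over all 18 arrays, with moderated 2-sided tests, shared spread and Benjamini-Hochberg adjustment over all 23999 probe sets. An adjusted p under 0.05 counted as a call. Errors in the text are standard errors of the fit unless marked SD. The fit was tested on simulated data with known changes. Noise there was independent for each probe set and array, without donor pairs, array batches or outlying arrays, so their influence was not covered. The number of arrays, above all the 2 naive ones, limits the precision.

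Of each gene, all probe sets were tested and the one with the highest mean over the arrays stands for it. From each of 11 gene lists, up to 3 genes past the threshold with the largest change were eligible to be named in each comparison, and for each member the 2 genes of highest Pearson correlation. CD79B was named as a marker near background after its values were seen. Members and lists were chosen with earlier results of these data known.

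Same-numbered kidneys came from the same donor, per the labels. Their deviations from the group means correlated between -0.20 (donor 1) and 0.57 (donor 4), with 0.07, 0.28, 0.16, 0.35, 0.27 and 0.39 in donors 2, 3, 5, 6, 7 and 8. Array batches were read from array file names. Alternatives were another variance model, a filter on dim probe sets, further normalization, array weights, batch as a term or block, donor as a replicate block, only the groups compared, and each array left out. Leaving out the arrays that stood apart at 4 h (in 2 ways) and staying within batch 1 were chosen after seeing the data. All columns of the deposited table were used.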

Additional observations from a re-analysis of the deposited data

Results flagged for a closer look

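In 6 of 68 groups of 4 arrays, each a member probe set in 1 transplanted group, the lowest or highest array lay further from the others than Dixon's 95% critical value allows, where chance alone marks about 5% of groups. FOS was 5.39 in the untreated 4 h kidney of donor 1, and the nearest array of that group had 9.68. FOSL1 was 2.42 in the same kidney, with 6.62 as the nearest value, and a dimmer FOSL1 probe set was 2.00 there, with 3.85 as the nearest. JUN was 9.02 in the CO 4 h kidney of donor 2, and the nearest array had 10.82. DUSP6 was 7.75 in the untreated 24 h kidney of donor 7, with 8.25 as the nearest value. The dimmer DUSP6 probe set was 5.12 in the CO 24 h kidney of donor 6, with 5.95 as the nearest.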

How the results depend on the processing

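Counts of member probe sets that passed depended most on single arrays, on the array batch and on how arrays were weighted; the cause was not tested. Leaving out 1 array at a time gave 0 to 14 higher in untreated 4 h kidneys against naive (4 reported), 0 to 14 in CO 4 h kidneys (12), 1 to 5 in untreated 24 h kidneys (3) and 0 to 4 in CO 24 h kidneys (3). It gave 0 to 6 for untreated 24 h against 4 h (1), 2 to 11 for CO 24 h against 4 h (5), and 0 for each CO against untreated comparison and their difference. In this order of the 6 comparisons that had calls, array weights gave 14, 14, 8, 6, 5 and 14 member probe sets, and array batch as a fixed term gave 0, 10, 0, 0, 0 and 0. Fitting only the groups compared gave 0, 11, 5, 4, 0 and 7. Without untreated 4 h donor 1 and CO 4 h donor 2 the member probe sets called were 14, 14, 5, 4, 10 and 13, and without either kidney of donors 1 and 2 they were 14, 14, 5, 5, 10 and 11. Within array batch 1, 0 passed in each 4 h group. Shifting arrays to 1 median gave 8 for CO 24 h against 4 h. Donor as a random replicate block left the counts of member probe sets at 4, 12, 3, 3, 1 and 5, and as a fixed block at 0 for CO against untreated kidneys.

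Of 90 single-gene results 27 changed sign in some alternative, 62 times in all, and 1 of these was a called result: SGK1 in CO 24 h against CO 4 h kidneys, which came to 0.52 with array batch as a fixed term. With that term EGR1 came to -0.69 in CO 24 h and -0.24 in untreated 24 h kidneys against naive, JUN to -0.45 in CO 24 h, SGK1 to 0.91 in CO 24 h and 0.001 in untreated 24 h, and, in untreated 24 h against 4 h kidneys, FOSL1 to 0.17 and IER5 to 0.06. A dimmer EGR1 probe set gave -0.86 in CO 24 h and -0.55 in untreated 24 h kidneys against naive. The dimmest EGR1 probe set lay the other way, with 0.997 and 1.35. Between CO and untreated kidneys at 4 h, dropping untreated donor 1 and CO donor 2 gave -0.18 for FOS, -0.016 for FOSL1 and -0.078 for MYC, and dropping donors 1 and 2 gave -0.29 for FOSL1, -0.43 for MYC, -0.13 for IER5 and -0.13 for DUSP6. For the difference of the CO effect these settings gave -0.077 and -0.042 for SGK1, and the second gave 0.10 for MYC and 0.16 for DUSP6. Array weights gave 0.16 for FOS and -0.006 for DUSP6 between CO and untreated kidneys at 24 h, and 0.11 for FOS and -0.049 for SGK1 in the difference of the CO effect. Quantile normalization again gave 0.039 for MYC in untreated 24 h against 4 h kidneys.

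The remaining changes of sign came from leaving out 1 array. Between CO and untreated kidneys at 4 h, FOS then ran from -0.80 to 0.98, FOSL1 from -0.32 to 1.34, ATF3 from -0.35 to 0.95, MYC from -0.23 to 0.59 and IER5 from -0.15 to 0.62. At 24 h FOS ran from -0.55 to 0.16, JUN from -0.44 to 0.054, ATF3 from -0.49 to 0.064, IER5 from -0.34 to 0.008, DUSP6 from -0.10 to 0.16 and KLF4 from -0.29 to 0.10. In untreated 24 h against 4 h kidneys FOSL1 ran from -1.19 to 0.47, MYC from -0.55 to 0.27 and IER5 from -0.61 to 0.16. For the difference of the CO effect FOS ran from -1.23 to 0.54, ATF3 from -1.13 to 0.17, IER5 from -0.76 to 0.014 and SGK1 from -0.038 to 0.45.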
